A study of Rattus norvegicus with 24 samples.

Results

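The renal medulla was compared between 120 h and 24 h after an ischemic injury, as a step from early injury to later repair. The 3 arrays titled as 120 h medulla were set against the 3 titled as 24 h medulla, 6 of the 24 arrays in the series. The animals were Wistar rats aged 3 months, and those of both groups had undergone bilateral renal ischemia of 20 min before blood flow returned. The other 18 arrays held medulla of sham rats and of rats at 6 h, and cortex of sham rats and of rats at 6, 24 and 120 h, with 3 arrays in each of the 8 groups. The labels name no transgene or drug. Whether each array of a group came from its own animal is not stated, and the p-values cover only the array-to-array spread, part or all of which may be technical.

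Kidney ischemia damages the proximal tubule most. This segment takes up most of the filtered phosphate, glucose, amino acids and protein and depends on oxidative metabolism. Its straight last segment lies in the outer stripe of the outer medulla, beside the thick ascending limb and the collecting duct. Surviving tubule cells lose their transporters and enzymes, re-enter the cell cycle, replicate DNA and divide, and regain the transport program as the epithelium is rebuilt.

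Total RNA was measured on Illumina bead arrays, and values below are log2 normalized intensities, with differences as 120 h minus 24 h on the log2 scale ± SE of the fit (n = 3 arrays per group). The deposited median intensity was 67.3 to 69.8 at 120 h and 76 to 81.2 at 24 h, with 12179 to 12618 and 12168 to 12710 of 22523 probes above background, and the number of arrays limits the precision. The thick ascending limb list stood above cortex in both groups. The mean level of its 13 genes was 10.55 to 10.68 in 120 h medulla and 9.54 to 9.84 in 120 h cortex. At 24 h it was 10.34 to 10.77 in medulla and 8.67 to 9.90 in cortex. Of the collecting duct lists, that of principal cells was above cortex at 120 h (8.84 to 9.37, against 7.96 to 8.26). That of intercalated cells was below cortex at 120 h (7.74 to 8.27, against 8.57 to 8.87) and at 24 h (7.80 to 8.16, against 8.21 to 8.92). The 24 h medulla arrays were not alike. Replicate 3 had the lowest proximal tubule level (7.32, against 8.99 and 8.17 for replicates 1 and 2) and the highest level of mitosis genes (8.55, against 7.42 and 7.16). Of the sham medulla arrays, replicate 1 had the highest proximal tubule level (11.68, against 10.09 and 10.95). Replicates 1 and 3 both had a high glomerular level (8.35 and 8.29, against 7.51 in replicate 2). List counts against sham are also given without replicate 1, and replicate 3 stays in those counts.

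Of 14390 probes tested with limma, 563 passed an adjusted p of 0.05 (3.91%), 283 higher at 120 h (1.97%) and 280 lower (1.95%). Of these, 183 higher and 164 lower probes differed at least 2-fold, and 145 had no gene symbol in the annotation. The 3 arrays at 120 h lay wholly beyond the 3 at 24 h for 557 of the 563 called probes, a pattern found for 27.8% of all probes tested. The number called depended on single arrays. It was 102 without 24 h replicate 3, 154 without 120 h replicate 2, 263 without 24 h replicate 2, 292 without 120 h replicate 3, 380 without 120 h replicate 1 and 818 without 24 h replicate 1.

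**Figure D1:**
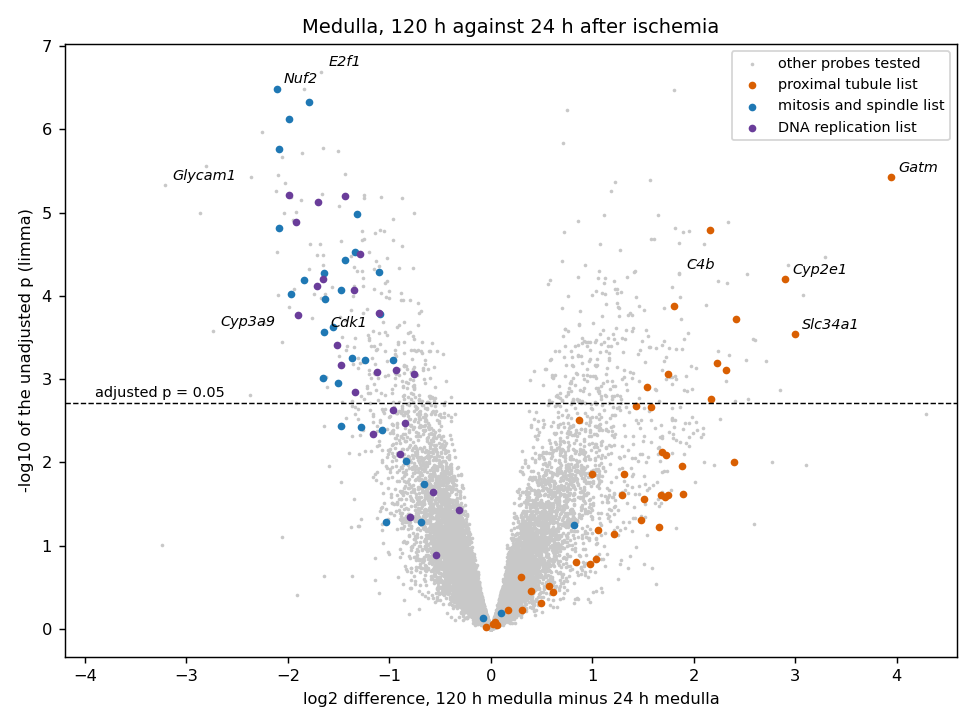
Each point is a probe, with its log2 difference (120 h medulla minus 24 h medulla) on the x axis and -log10 of the unadjusted limma p on the y axis, and the dashed line marks the adjusted p of 0.05. Members of the mitosis and DNA replication lists lie mostly on the lower side, down to -2.11 for Nuf2, and those of the proximal tubule list mostly on the higher side, up to 3.94 for Gatm.

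With 1 probe per gene, 408 of 9799 genes were called (4.16%), 215 higher at 120 h (2.19%) and 193 lower (1.97%), around a median difference of -0.03. Of the 39 gene lists, which were chosen with earlier results of these data known, 3 held most of the calls made on listed genes. Mitosis and spindle genes were lower at 120 h in 22 of 32 members measured and higher in 0, with a median difference of -1.40. DNA replication genes were lower in 16 of 24 and higher in 0, with a median of -1.22. Proximal tubule genes were higher in 11 of 44 and lower in 0, with a median of 1.49. Not above background on any array of 1 or both groups were Ccnb1, Cdt1, Slc5a1, Slc5a12, Akr1c2 and Slc7a8 of these lists, and none of them was called. In bulk tissue, fewer cells of a type, less RNA per cell and a different share of each kidney zone in the samples cannot be told apart.

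**Figure D2:**
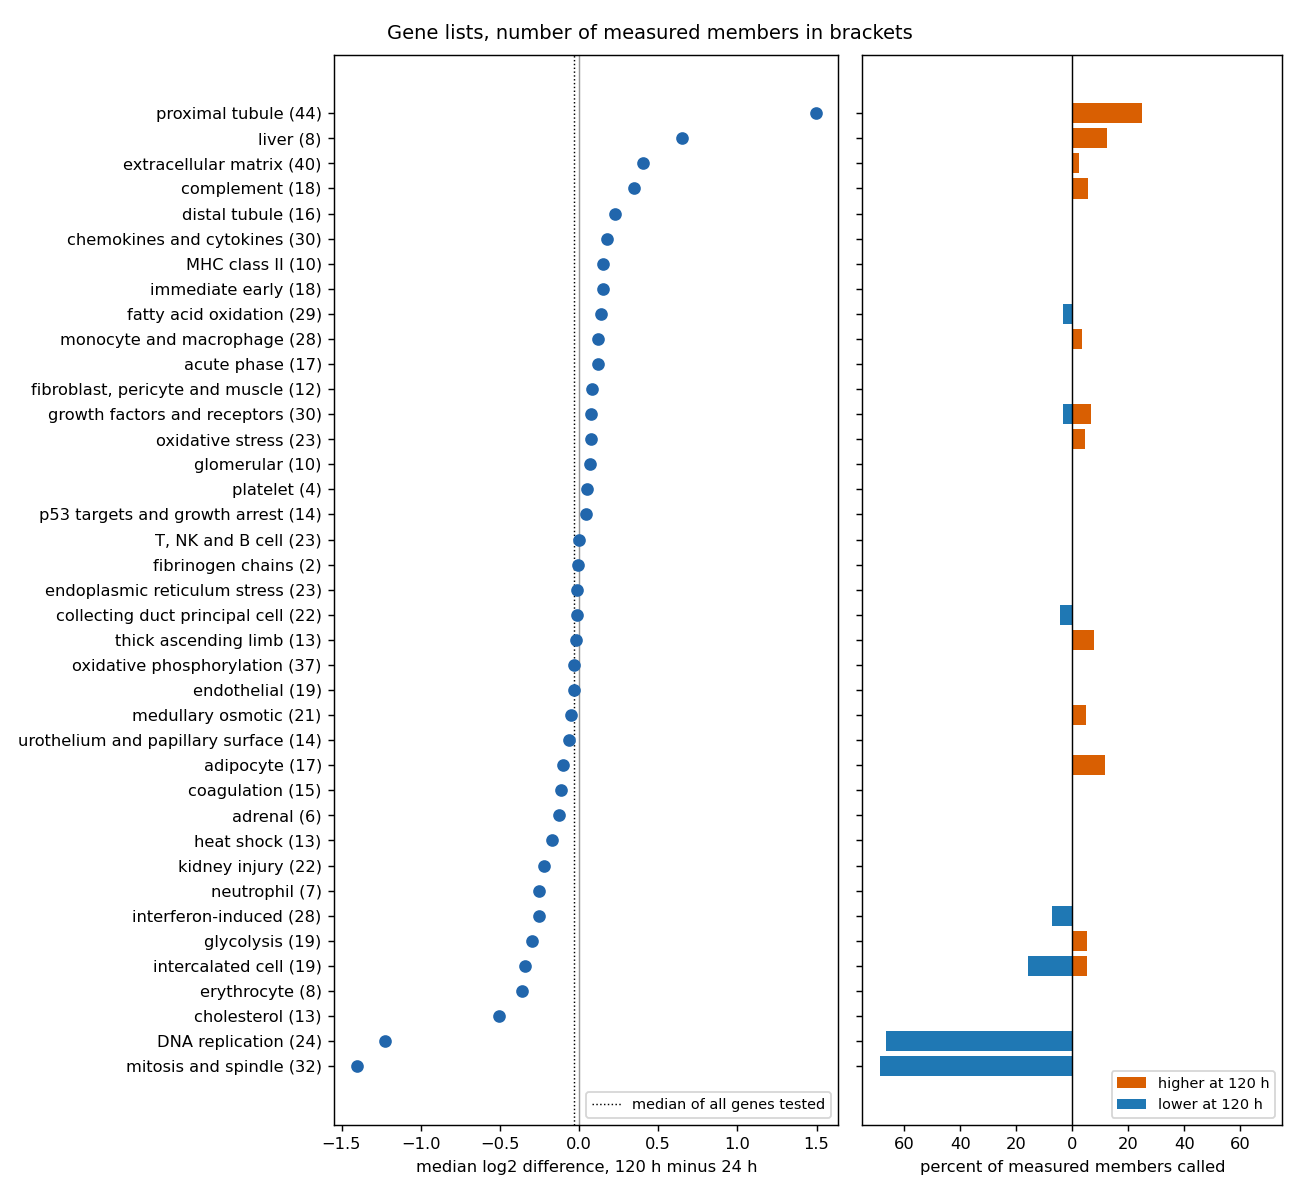
The left panel gives the median log2 difference (120 h minus 24 h) of each gene list, with the dotted line at the median of all genes tested, and the right panel gives the percent of measured members called higher (to the right) or lower (to the left). Mitosis and DNA replication genes stand at -1.40 and -1.22 and proximal tubule genes at 1.49. The lists between liver (0.65) and cholesterol (-0.50) have at most 3 calls in a direction (3 of 19 intercalated cell genes lower).

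Promoters of 3 called genes are shown with sequence motifs known for their groups. The CHR element, searched as TTTGAA, and the CCAAT box occur in promoters of mitosis genes. E2F sites, searched as TTGGCGC and the variants TTCCCGC and TTCGCGC, occur in promoters of replication genes. An HNF1 core, searched as GTTAAT, and an HNF4 core, searched as CAAAGTC, were chosen for proximal tubule genes. Matches on either strand are in capitals in the 250 bases before the RefSeq start of each gene, given 5′ to 3′ on the gene's strand in build GRCr8. Each gene shown had the largest difference among the members of its list whose window held the motifs required. These were the CHR element and CCAAT box for mitosis, E2F for replication and both cores for proximal tubule genes. The required motifs in these 3 windows were thus fixed by the choice. Cdc20, an activator of the anaphase-promoting complex, lies at chr5:137255800-137256049 on the minus strand, Gins1, a subunit of the replicative helicase complex, at chr3:160184670-160184919 on the plus strand, and Slc34a1, the sodium-phosphate cotransporter NaPi-IIa, at chr17:9238984-9239233 on the minus strand.
Cdc20: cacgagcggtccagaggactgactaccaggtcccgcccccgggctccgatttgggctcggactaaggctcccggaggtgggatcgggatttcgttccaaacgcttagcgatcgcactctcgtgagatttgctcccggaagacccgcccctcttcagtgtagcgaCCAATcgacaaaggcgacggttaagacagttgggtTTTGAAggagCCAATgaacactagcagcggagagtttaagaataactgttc
Gins1: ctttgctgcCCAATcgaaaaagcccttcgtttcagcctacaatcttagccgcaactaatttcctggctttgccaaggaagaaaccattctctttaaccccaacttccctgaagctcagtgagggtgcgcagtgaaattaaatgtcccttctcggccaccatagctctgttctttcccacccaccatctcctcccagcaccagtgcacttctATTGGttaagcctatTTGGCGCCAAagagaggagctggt
Slc34a1: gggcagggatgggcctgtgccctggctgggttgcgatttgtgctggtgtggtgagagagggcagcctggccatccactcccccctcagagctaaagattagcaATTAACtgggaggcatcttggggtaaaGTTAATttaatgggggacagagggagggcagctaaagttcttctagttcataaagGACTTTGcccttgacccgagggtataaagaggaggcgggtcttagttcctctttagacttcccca

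The Cdc20 window held a CHR element 51 bases and CCAAT boxes 86 and 41 bases before the start. The Gins1 window held overlapping E2F matches on opposite strands 24 and 21 bases before the start and CCAAT boxes at 241 and 39 bases, and that of Slc34a1 held HNF1 cores at 147 and 120 bases and an HNF4 core at 65 bases. The CHR element was found in 12 of 27 mitosis promoters (44.4%), in 10.7% of promoters of the genes tested and in 16% of all 27457 promoters. For the CCAAT box the shares were 70.4% of the mitosis promoters, 35.2% and 34.3%. An E2F match was in 8 of 20 replication promoters (40%), 11.1% of those of the genes tested and 6.41% of all. The HNF1 core was in 7 of 40 proximal tubule promoters (17.5%), 4.44% and 6.46%, and the HNF4 core in 6 of 40 (15%), 3.08% and 3.95%. The HNF4 core was also in 11.1% of mitosis and 10% of replication promoters, the CHR element in 20% of proximal tubule promoters, and the CCAAT box in 45% of replication promoters. The windows of Nuf2 and Gatm, called genes of the same lists, held none of the motifs searched for their list. The shares cover list members whether called or not, so they do not depend on the differences between 120 h and 24 h. A match is a description of the letters, and binding was not measured.

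Cell cycle genes were among the largest decreases. The 15 largest, chosen among called probes without overlap, included the kinetochore genes Nuf2, Spc25, Cenpk, Cenpt and Kntc1, the spindle factor Tpx2, Cdc20 and cyclin A2 (Ccna2). Nuf2, part of the complex that attaches microtubules to the kinetochore, was 5.87, 5.96 and 6.09 at 120 h, against 7.52, 7.73 and 9.0 at 24 h. All 3 arrays at 120 h were below all 3 at 24 h, and replicate 3 was the highest at 24 h. The difference was -2.11 ± 0.28 (4.32-fold lower at 120 h, adjusted p = 0.00122). Cdc20 was 7.01, 6.2 and 6.39 at 120 h, against 8.37, 7.93 and 9.58 at 24 h, again without overlap, a difference of -2.09 ± 0.37 (adjusted p = 0.00436). Cyclin A2, which drives S phase and entry into mitosis, was 6.14, 6.36 and 6.27 at 120 h, against 8.0, 7.67 and 9.35 at 24 h. Its groups did not overlap and it differed by -2.08 ± 0.31 (adjusted p = 0.00214).

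The other called members of the mitosis list differed by between -0.96 (Racgap1, a regulator of cytokinesis) and -1.99 (Spc25). They included the mitotic kinases Cdk1 (-1.65 ± 0.37), Aurkb (-1.64 ± 0.34), Plk1 (-1.37 ± 0.33), Ttk (-1.79 ± 0.24) and the checkpoint kinase Bub1 with its relative Bub1b (-1.24 and -1.32 ± 0.22). Of the members, 10 were not called, among them the cyclin Ccnb2 (-1.47 ± 0.45, adjusted p = 0.0689) and the spindle motor Kif11, whose probes gave 0.82 and 1.32. The number of mitosis genes called was 10 without 24 h replicate 3 and 14 without 120 h replicate 2, and Nuf2, Cdc20, Ccna2, Spc25, Ttk and Bub1b kept their calls with each array left out in turn. With the authors' series values the differences of dim members were smaller, -1.30 for Nuf2 and -0.59 for Bub1b.

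DNA replication genes were lower at 120 h together with the mitosis genes. Mcm6, a subunit of the replicative helicase, was 8.15, 8.10 and 8.37 at 120 h, against 9.06, 10.14 and 11.12 at 24 h. The groups did not overlap, and the 24 h arrays spread over a wider range than those at 120 h. The difference was -1.90 ± 0.41 (adjusted p = 0.0138), and it did not pass without 24 h replicate 3 (-1.40, adjusted p = 0.117) or without 120 h replicate 2 (-1.85, adjusted p = 0.063). Pole2, a subunit of the leading-strand polymerase epsilon, was 5.74, 6.04 and 6.01 at 120 h, against 6.91, 7.90 and 8.94 at 24 h (-1.99 ± 0.32, adjusted p = 0.00292). Gins1 was 6.05, 5.86 and 5.61 at 120 h, against 6.96, 7.55 and 8.76 at 24 h (-1.92 ± 0.33, adjusted p = 0.00394). Neither gene had overlapping groups, and both kept the call with each array left out.

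The called members of the replication list also took in the flap nuclease Fen1 (-1.71), the clamp loader subunits Rfc3 and Rfc4 (-1.65 and -1.44), the nucleotide enzymes Rrm2 and Tyms (-1.33 and -1.29), cyclin E1 (Ccne1, -1.10) and the sliding clamp Pcna (-0.76). Of the 8 members not called, all had negative differences, from -0.32 for Gins2 to -1.16 for Cdc6. The count of 16 was 5 without 24 h replicate 3 and 7 without 120 h replicate 2. Regulators outside the lists, picked after their values were seen, were E2f1, a transcription factor of the G1 to S transition (-1.67 ± 0.21, adjusted p = 0.00122), Foxm1, a transcription factor of G2 and mitosis (-1.38 ± 0.26, adjusted p = 0.00614), and the inhibitory Cdk1 kinases Wee1 (-1.25 ± 0.20, adjusted p = 0.00292) and Pkmyt1 (-1.86 ± 0.28, adjusted p = 0.00214). E2f1 was 5.47, 5.34 and 5.19 at 120 h, against 6.34, 7.10 and 7.58 at 24 h, with no overlap.

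The 2 cell cycle lists stood differently against sham at 120 h. These comparisons share arrays with the one above, and they called 14.6% of probes at 120 h (7.69% higher and 6.88% lower) and 32.7% at 24 h (17.2% higher and 15.5% lower), or 15.8% and 35.3% of genes. Among mitosis genes 20 of 32 were higher than sham at 120 h and 29 at 24 h, where 9.41% and 19.8% of all genes were higher. Among replication genes 2 of 24 were higher than sham at 120 h and 23 at 24 h. Without sham replicate 1 the counts were 19 and 29 for mitosis and 1 and 20 for replication, where 4.5% and 13.3% of all genes were higher. Cdk1 was 2.84 above sham at 120 h (adjusted p = 0.000256) and 4.49 above it at 24 h, whereas Mcm6 was 1.07 above sham at 120 h (adjusted p = 0.0889) and 2.97 at 24 h. The difference between the lists was not tested.

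Proximal tubule genes of transport and metabolism were higher at 120 h. Gatm, the enzyme of the first step of creatine synthesis, was 9.28, 9.93 and 9.40 at 120 h, against 5.93, 5.22 and 5.61 at 24 h. Each 120 h array was more than 3 log2 units above each 24 h array. The difference of 3.94 ± 0.62 (15.4-fold, adjusted p = 0.00287) was the largest among the named genes, and it kept its call with each array left out. It was 2.65 with the authors' series values. Slc34a1 was 11.90, 11.43 and 10.35 at 120 h, against 9.64, 8.56 and 6.48 at 24 h. The groups did not overlap, and replicate 3 was lowest in both. The difference was 3.00 ± 0.68 (8.0-fold, adjusted p = 0.0193), and it did not pass without 24 h replicate 3 (2.13, adjusted p = 0.147), 120 h replicate 1 (2.66, adjusted p = 0.0689) or 120 h replicate 2 (2.90, adjusted p = 0.0768).

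Cyp2e1, a cytochrome P450 that oxidizes small molecules, was 11.08, 11.51 and 10.85 at 120 h, against 10.25, 7.83 and 6.65 at 24 h. The groups did not overlap, though 24 h replicate 1 came close to the lowest 120 h array. The difference was 2.90 ± 0.57 (7.48-fold, adjusted p = 0.0082), and it did not pass without 24 h replicate 3 (2.11, adjusted p = 0.0661) or, by a narrow margin, without 120 h replicate 2 (2.72, adjusted p = 0.05). Anpep, the brush border aminopeptidase N, was 13, 12.06 and 12.43 at 120 h, against 11.29, 10.44 and 8.80 at 24 h (2.32 ± 0.58, adjusted p = 0.0306), again without overlap. It did not pass in 5 of the 6 fits that left out an array, with adjusted p up to 0.211. The other called members were the urate transporter Slc22a12 (2.42), the protease Mep1a (2.23), the gluconeogenic enzyme Fbp1 (2.17), the aminotransferase Agxt2 (2.17), the phosphate and organic anion carrier Slc17a1 (1.81), the protein uptake receptor Cubn (1.74) and the cystine transporter subunit Slc7a9 (1.54). Of the 11, 9 lost the call without 24 h replicate 3, and Gatm and Agxt2 kept it with each array left out. The count was 6 without 24 h replicate 2, 3 without 120 h replicate 1, 3 without 120 h replicate 2 and 21 without 24 h replicate 1.

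Beyond the list, the largest increases held further genes, some of them of tubular transport or detoxification. Among these further genes were Ugt2b35 (3.29 ± 0.62), a UDP-glucuronosyltransferase, the fatty acid hydroxylase Cyp4a8 (2.93 ± 0.56) and the organic anion carrier family member Slc22a22 (2.72 ± 0.66). Others were the aminoacylase Acy1 (2.51 ± 0.61), the cytochrome Cyp2d2 (2.35 ± 0.57), and Tmigd1, Pter and Ust5r (2.86, 2.58 and 2.32). Each gene from Ugt2b35 to Ust5r lost the call without 24 h replicate 3. Tmigd1, Slc22a22, Pter and Acy1 lost it in 5 of the 6 fits that left out an array, and Cyp2d2 in 4. Serpinf2, the main inhibitor of plasmin, was 12.51, 11.78 and 11.89 at 120 h, against 10.69, 9.56 and 8.34 at 24 h. Its groups did not overlap, and it differed by 2.53 ± 0.49 (adjusted p = 0.00768), but did not pass without 24 h replicate 3 (1.93, adjusted p = 0.0699). Further proximal tubule genes, picked after their values were seen, were Amn, the partner of Cubn (2.24 ± 0.44, adjusted p = 0.00825), the brush border peptidase Dpp4 (1.95 ± 0.34, adjusted p = 0.00436), the paracellular channel Cldn2 (1.61 ± 0.43, adjusted p = 0.041) and the microvillus protein Vil1 (1.79 ± 0.36, adjusted p = 0.00912). Dpp4 kept the call with each array left out, whereas Amn and Vil1 lost it without 24 h replicate 3. Cldn2 lost it in 5 of these 6 fits, and with the authors' series values (1.31, adjusted p = 0.0709).

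Other proximal tubule genes did not pass. Hnf4a, a transcription factor of this epithelium, was 7.13, 6.89 and 6.08 at 120 h, against 5.6, 4.96 and 4.79 at 24 h, without overlap (1.58 ± 0.45, adjusted p = 0.0533). Pck1, the enzyme that commits to gluconeogenesis, was 12.30, 13.22 and 12.19 at 120 h, against 12.39, 10.42 and 7.70 at 24 h, and its groups overlapped (2.40 ± 0.84, adjusted p = 0.119). Slc5a2, the glucose transporter of the early proximal tubule, was 5.87, 7.31 and 5.28 at 120 h, against 5.70, 5.09 and 4.73 at 24 h (0.98 ± 0.68, adjusted p = 0.479). Both groups were dim and overlapped. Slc4a4, the basolateral bicarbonate exporter of the early segments, differed by -0.04 ± 0.63, and Kap, an androgen-regulated protein of the tubule, by 0.04 ± 0.17 near the top of the scale. Kap lay between 14.19 and 14.44 at 120 h and between 13.69 and 14.70 at 24 h.

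Against sham, 13 of 44 proximal tubule genes were lower at 120 h and 38 at 24 h, where 6.36% and 15.5% of all genes were lower. Without sham replicate 1 these counts were 5 and 36, where 2.37% and 10.7% of all genes were lower. Gatm was 1.77 below sham at 120 h (adjusted p = 0.0625) and 5.71 below it at 24 h (adjusted p = 5.89e-06). Cyp2e1 was still 2.36 below sham at 120 h (adjusted p = 0.0106) and Slc5a2 2.99 below (adjusted p = 0.00758), whereas Cyp4a8 differed from sham by 0.23 ± 0.56 at 120 h (adjusted p = 0.842). Without sham replicate 1 the value for Slc5a2 was -2.29 (adjusted p = 0.0525). Its sham arrays were 10.54, 7.41 and 9.47, of which replicates 1 and 3 were far above replicate 2.

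**Figure D3:**
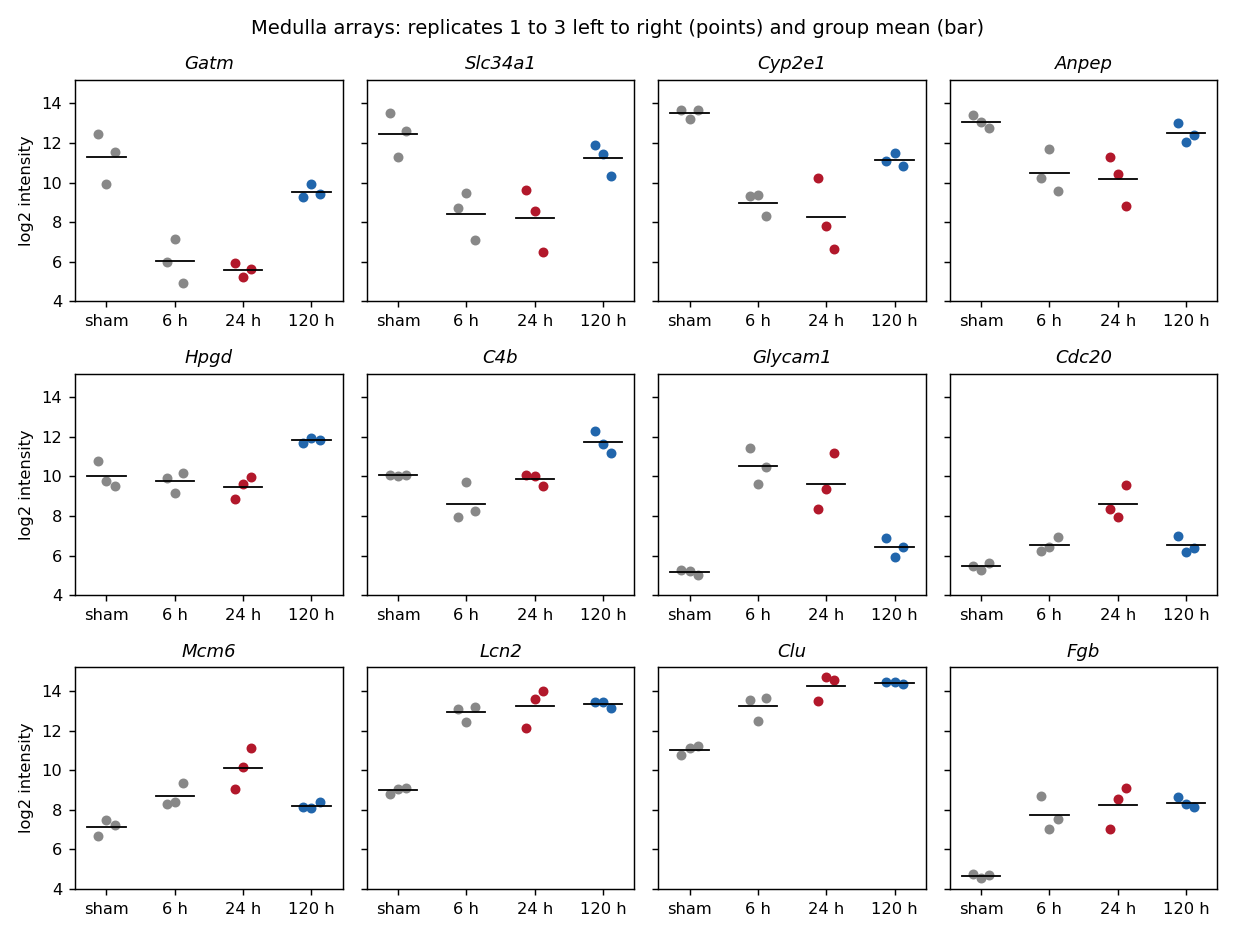
Log2 normalized intensity of 12 genes on the 12 medulla arrays, in the order sham, 6 h, 24 h and 120 h, with a point per array and a bar at the group mean. Gatm, Slc34a1, Cyp2e1 and Anpep are higher at 120 h than at 24 h, Glycam1, Cdc20 and Mcm6 lower, Hpgd and C4b higher at 120 h than in any other group, and Lcn2, Clu and Fgb overlap between 24 h and 120 h.

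Markers of cortex and of the proximal tubule itself were set beside these results. The 10 glomerular genes measured, which mark cortex, had 0 calls in either direction, where 4.16% of all genes were called, and a median difference of 0.07. As markers of cortex, they do not measure how much outer stripe of the medulla each sample held. Their mean level was 7.46, 7.69 and 7.5 at 120 h, against 7.68, 7.67 and 7.29 at 24 h, and their summed intensity was 3633 to 4881 at 120 h, against 3385 to 5726 at 24 h. These ranges overlapped, and of the podocyte genes Wt1 was above background on 1 array at 120 h and 0 at 24 h. The mean level of the proximal tubule list was 9.89, 9.62 and 9.13 at 120 h, against 8.99, 8.17 and 7.32 at 24 h, without overlap. With the glomerular level as a covariate 615 probes were called, 22 mitosis, 19 replication and 13 proximal tubule genes among them. With the proximal tubule level as a covariate 2 were called, both lower, and 0 members of each list, with list medians of -0.87, -0.62 and -0.20. That covariate is built from the proximal tubule genes and differed between the groups, so the 2 cannot be told apart in this fit. Both covariates were added after the data were seen.

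**Figure D4:**
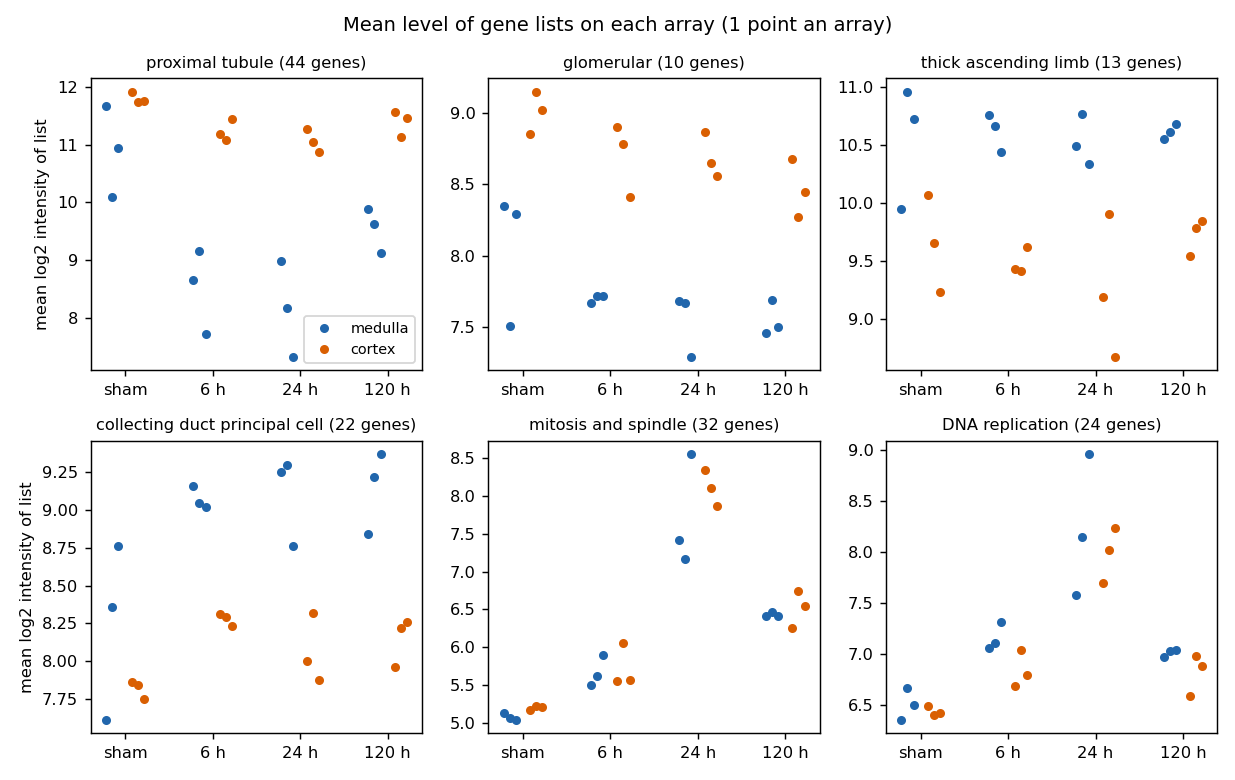
Mean log2 normalized intensity of 6 gene lists on each of the 24 arrays, medulla in blue and cortex in orange, in the order sham, 6 h, 24 h and 120 h. In medulla the proximal tubule level is 9.13 to 9.89 at 120 h and 7.32 to 8.99 at 24 h, glomerular levels overlap, and mitosis and replication levels peak at 24 h with replicate 3 the highest.

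Several genes outside these groups were higher at 120 h. Hpgd, the enzyme that inactivates prostaglandins, was 11.68, 11.95 and 11.84 at 120 h, against 8.87, 9.62 and 9.97 at 24 h, with no overlap. It differed by 2.34 ± 0.40 (5.05-fold, adjusted p = 0.00394) and kept the call with each array left out. It was also 1.79 above sham at 120 h (adjusted p = 0.00721) and -0.54 from sham at 24 h (adjusted p = 0.335). C4b, a component of the classical complement pathway, was 12.32, 11.66 and 11.20 at 120 h, against 10.08, 10.01 and 9.53 at 24 h, without overlap. The difference was 1.85 ± 0.36 (adjusted p = 0.00768), and without 24 h replicate 3 it was 1.68 (adjusted p = 0.0661). C4b was the only 1 of 18 complement genes called, around a list median of 0.35, where 4.16% of all genes were called.

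Ltbp2, a matrix protein related to the latent TGF-beta binding proteins, was 7.91, 8.36 and 8.19 at 120 h, against 6.51, 6.55 and 6.45 at 24 h (1.65 ± 0.28, adjusted p = 0.00362). Its groups were tight and apart, and it was 2.47 above sham at 120 h (adjusted p = 8.17e-05). Eln, which encodes elastin, was 8.16, 7.44 and 6.91 at 120 h, against 4.96, 5.97 and 5.98 at 24 h, also without overlap (1.86 ± 0.38, adjusted p = 0.01). Both kept the call with each array left out. Eln was the 1 call among 40 extracellular matrix genes, whose median was 0.40, where 4.16% of all genes were called. Col1a1, a chain of type I collagen, was 8.32, 7.51 and 7.15 at 120 h, against 5.35, 6.23 and 7.01 at 24 h, and did not pass (1.46 ± 0.60, adjusted p = 0.181). Of these matrix genes 22 were above sham at 120 h and 15 at 24 h, where 9.41% and 19.8% of all genes were higher. Without sham replicate 1 the counts were 15 and 8, where 4.5% and 13.3% of all genes were higher.

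Immune lists had few calls, as did all genes tested, of which 4.16% were called. Mrc1, the macrophage mannose receptor, was the 1 of 28 monocyte and macrophage genes called (1.78 ± 0.47, adjusted p = 0.0374). It was 6.89, 8.81 and 8.01 at 120 h, against 7.02, 4.94 and 6.40 at 24 h, so that its groups overlapped, and it did not pass without 24 h replicate 2 (1.19, adjusted p = 0.199), 24 h replicate 3, 120 h replicate 2 or 120 h replicate 3. Of 28 interferon-induced genes 2 were lower, Ifit3 (-1.04 ± 0.25, adjusted p = 0.023) and Bst2 (-0.86 ± 0.21, adjusted p = 0.0287). Of the 6 fits that left out an array, Ifit3 lost the call in 4 and Bst2 in 5. No call was made among 30 chemokines and cytokines, 10 MHC class II, 7 neutrophil, or 23 T, NK and B cell genes. The monocyte chemokine Ccl7 was 7.51, 6.6 and 8.68 at 120 h, against 6.10, 6.10 and 5.23 at 24 h, without overlap, and missed the threshold (1.79 ± 0.51, adjusted p = 0.0538).

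Glycam1, known as a mucin-like ligand of L-selectin on lymph node endothelium, had the largest decrease of a named gene. It was 6.89, 5.92 and 6.43 at 120 h, against 8.36, 9.36 and 11.16 at 24 h. All 120 h arrays were below all 24 h arrays, which spread over nearly 3 log2 units. The difference was -3.21 ± 0.51 (9.24-fold lower at 120 h, adjusted p = 0.00292), and without 24 h replicate 3 it was -2.44 (adjusted p = 0.0112). It was 1.26 above sham at 120 h (adjusted p = 0.106) and 4.47 above it at 24 h. Cyp3a9, a cytochrome P450, was 5.11, 5.52 and 5.36 at 120 h, against 7.62, 8.16 and 8.43 at 24 h (-2.74 ± 0.62, adjusted p = 0.0186). The groups lay far apart, but the call was lost in 5 of 6 fits without 1 array, with adjusted p of 0.0511 to 0.113, and the difference was -1.53 with the authors' series values. Tsn, the nucleic acid binding protein translin, was 7.82, 8.06 and 7.70 at 120 h, against 9.53, 9.93 and 10.22 at 24 h (-2.03 ± 0.32, adjusted p = 0.00291). Higd2a, an assembly factor of cytochrome c oxidase, differed by -1.94 ± 0.39 (adjusted p = 0.00934, lost without 24 h replicate 3 or 120 h replicate 2) in 1 probe and by -0.76 (adjusted p = 0.316) in another.

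Injury and acute phase genes did not pass between the times. None of 22 kidney injury genes was called, where 4.16% of all genes were, and their median was -0.22. Of them, 14 were above sham at 120 h and 16 at 24 h, where 9.41% and 19.8% of all genes were higher. Without sham replicate 1 the counts were 8 and 13, where 4.5% and 13.3% of all genes were higher. Lcn2, the injury marker NGAL, was 13.44, 13.47 and 13.16 at 120 h, against 12.14, 13.59 and 14 at 24 h. The 120 h arrays lay within the range at 24 h, and the difference was 0.11 ± 0.54 (adjusted p = 0.947). Clu and Spp1, both secreted glycoproteins raised in injury, differed by 0.17 ± 0.37 and -0.13 ± 0.22, at levels of 14.37 to 14.64 at 120 h, close to the top of the normalized scale (14.78), where differences are compressed. Timp1, a metalloproteinase inhibitor, differed by -0.87 ± 0.79 (adjusted p = 0.628) and Vim, an intermediate filament protein, by -0.23 ± 0.29 (adjusted p = 0.749).

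The fibrinogen chains, named in the series title, also overlapped. Both chains measured were above sham at 24 h and 120 h (medians 3.00 and 2.99), where 19.8% and 9.41% of all genes were higher. Without sham replicate 1 the counts were 2 and 1, where 13.3% and 4.5% of all genes were higher. In cortex both were lower at 120 h than at 24 h (median -2.56), where 1.61% of all genes were lower. Neither passed the test of the medulla change minus the cortex change. Fgb was 8.63, 8.29 and 8.12 at 120 h, against 7.01, 8.56 and 9.09 at 24 h, a difference of 0.12 ± 0.60 (adjusted p = 0.948). Fgg was 7.90, 7.09 and 6.54 at 120 h, against 6.88, 7.0 and 8.04 at 24 h (-0.13 ± 0.65, adjusted p = 0.95). The 95% intervals were -1.14 to 1.39 for Fgb and -1.50 to 1.24 for Fgg, and differences inside them were not detectable with 3 arrays a group.

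Of the segments other than the proximal tubule, intercalated cells of the collecting duct had the most calls. They had 3 of 19 genes lower and 1 higher, where 1.97% and 2.19% of all genes were. The proton pump subunit Atp6v1g3 was 12.05, 11.97 and 12.15 at 120 h, against 12.94, 13.25 and 13.37 at 24 h (-1.13 ± 0.30, adjusted p = 0.0412), and the bicarbonate exchanger Slc4a9 was 7.71, 7.64 and 7.34 at 120 h, against 8.29, 8.91 and 8.86 at 24 h (-1.12 ± 0.27, adjusted p = 0.023). The arrays of both genes did not overlap. The channel Aqp6 was lower as well (-1.20 ± 0.33, adjusted p = 0.0499), and the receptor Kit was higher (1.01 ± 0.26, adjusted p = 0.0334). Each of these 4 calls was lost without at least 4 of the 6 arrays in turn. In principal cells Aqp2, the vasopressin-regulated water channel, was 12.70, 13.12 and 13.59 at 120 h, against 12.23, 12.56 and 10.05 at 24 h, without overlap, and did not pass (1.53 ± 0.71, adjusted p = 0.253). Umod, uromodulin of the thick ascending limb, differed by 0.53 ± 0.52 (adjusted p = 0.662), and 1 of 13 genes of that segment was called, Irx1 (0.92 ± 0.24), whose other probe gave -0.24.

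Whether these changes differed from those in cortex was tested as the medulla change minus the cortex change. The labels do not say whether medulla and cortex arrays of 1 number share an animal, and the test and its intervals treat all arrays as separate. Of 14390 probes 1 passed (0.00695%, or 0.0102% of genes), Hpx, which changed in cortex. An unadjusted p under 0.05 was found for 273, a smaller share than the 0.05 expected where no probe differs. A gene that did not pass was thus not shown to change equally in medulla and cortex. In cortex 2.55% of genes were called. There 27 of 32 mitosis and 12 of 24 replication genes were lower at 120 h than at 24 h, with medians of -1.71 and -1.04, where 1.61% of all genes were lower. No member of either list passed the test of the difference. Nuf2 changed by -2.11 in medulla and -2.15 in cortex, a difference of 0.04 with a 95% interval of -0.78 to 0.87. Of the proximal tubule genes 1 of 44 was higher in cortex, Gatm (2.96 ± 0.62, adjusted p = 0.0132), where 0.939% of all genes were higher, and the cortex median was 0.28. The median medulla-minus-cortex difference was 1.04 over these genes and -0.02 over all genes, and 0 of the 44 passed. For Slc34a1 it was 2.05 with an interval of 0.04 to 4.06 (adjusted p = 1), and for C4b, which changed by 0.05 in cortex, 1.80 with an interval of 0.74 to 2.87 (adjusted p = 1).

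**Figure D5:**
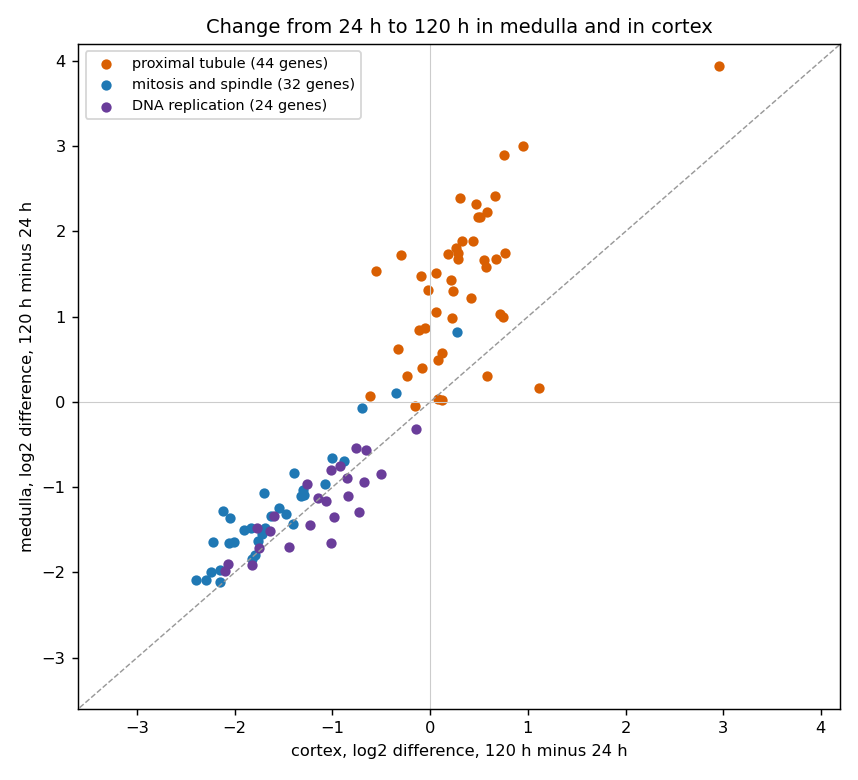
Log2 difference between 120 h and 24 h in medulla (y axis) against that in cortex (x axis) for members of 3 gene lists, with the dashed line at equal change. Mitosis and replication genes lie near the line, and proximal tubule genes mostly above it, with Gatm at 2.96 in cortex and 3.94 in medulla.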

How the data were processed

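Gene expression was measured in rat renal cortex and medulla on Illumina bead arrays. Per the labels, Trizol and RNeasy were used to extract RNA, DNase I to clear it of DNA, and an Ambion MessageAmp kit to make biotinylated cRNA. The intensities deposited by the authors are signals before any normalization, per the file headers. Scanner software, slides and scan dates are not given in the sources used here. A detection column, a fraction, accompanies the deposited intensities and is headed as a p-value. It rose with intensity (Spearman 0.921 across probes), so the detection p was taken as 1 minus it. A second deposited table, on the log2 scale and normalized by the authors in a way that no source used here gives, served as an alternative.

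Intensities were normalized with neqc of limma 3.58.1 in R 4.3.3 (normexp background from the detection p, offset 16, quantile, log2). The fit kept 14390 of 22523 probes, those detected (p under 0.05) on 3 or more arrays. Annotation gave 1 symbol for 13793 probes and none for 8730. All 24 arrays entered a single limma model of the 8 groups, with 16 residual degrees of freedom, Benjamini-Hochberg adjustment within a comparison and a threshold of 0.05. An exact test of 3 against 3 arrays cannot go below p = 0.1, so the adjusted p of limma is given.

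List counts used 1 probe per gene, the one with the highest mean. The members and the 39 gene lists were chosen with earlier results of these data known. Named genes were the 15 largest called changes per direction without overlapping arrays, 13 genes always named, up to 4 called members per list or 2 others, and 5 per side of the comparison with cortex. Genes named beyond that rule were picked after their values were seen: E2f1, Foxm1, Wee1, Pkmyt1, Amn, Dpp4, Cldn2, Vil1, Wnt7b, Net1, Nlrp3, Gpr89b, Ccl7, Lzts3, Wt1 and listed genes of the 3 main lists beyond 4. No 2 arrays held identical values. Promoter sequences came from RefSeq (GRCr8). Alternatives covered background correction, normalization, probe filters, the arrays fitted, array weights, the variance prior, the threshold, blocks and each array left out.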

Additional observations from a re-analysis of the deposited data

Results flagged for a closer look

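Hpx, which encodes the heme-binding protein hemopexin, differed in its change from 24 h to 120 h between medulla and cortex by 2.96 ± 0.35 on the log2 scale (limma interaction term, adjusted p = 0.000777), the 1 probe of 14390 that passed this test. In medulla Hpx was 4.90, 5.23 and 5.26 at 120 h, against 5.08, 4.82 and 4.91 at 24 h, overlapping and close to background. In cortex it was 4.87, 5.19 and 5.17 at 120 h, against 7.19, 7.71 and 8.63 at 24 h, a decrease in which the groups did not overlap.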

How the results depend on the processing

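Of 92 called probes of named genes, 0 reversed under any of 22 alternatives, 30 kept the call with each array left out and 6 (Gatm, Hpgd, Tsn, Spc25, Ltbp2 and Lzts3) under each alternative except the proximal tubule covariate, under which none of the 6 passed. Both covariates were chosen after seeing the data. The count of 563 was 146 (73.3% higher) with only the groups compared, 361 with the 12 medulla arrays, 2767 with array weights, 145 (37.9% higher) at an adjusted p under 0.01, 2 with the proximal tubule level as a covariate, and 102 to 818 with an array left out. In the same order mitosis calls were 1, 15, 23 (1 of them higher), 13, 0 and 10 to 22, replication calls 0, 8, 20, 8, 0 and 5 to 20, and proximal tubule calls 3, 2, 25, 3, 0 and 2 to 21 (6 with no filter on dim probes). The difference from cortex gave 0 with only those groups, 2 with array weights and 1 to 2 with an array left out. The count for 24 h against sham was 2705 at the stricter threshold and 3160 to 4570 with an array left out, and that for 120 h against sham 705, 3610 with array weights and 949 (without sham replicate 1) to 1737. Median scaling put 63.8% of those calls higher, against 52.8%. The causes were not tested. Same-numbered arrays of 120 h and 24 h medulla did not deviate together (correlations of deviations -0.047, -0.067 and 0.053), nor did those of 120 h medulla and cortex (-0.153, -0.037 and -0.169), but those of 24 h medulla and cortex did (0.398, 0.262 and 0.356). A replicate block gave 628 calls, 325 higher, and with it, or with the number within a time as a random block, the difference from cortex gave 1 call. Signal over background limits what could be seen in dim genes, whose differences shrank in the authors' series values.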

Other observations

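Of the called genes below, Wnt7b, Net1, Nlrp3 and Gpr89b lay outside the listed groups and were picked after their values were seen. Wnt7b, a Wnt ligand of collecting duct, was 6.24, 8.28 and 7.52 at 120 h, against 5.46, 5.88 and 5.25 at 24 h (1.82 ± 0.47, adjusted p = 0.0334), without overlap. Net1, a RhoA exchange factor, was 8.02, 8.79 and 7.88 at 120 h, against 6.04, 6.66 and 6.06 at 24 h (1.98 ± 0.49, adjusted p = 0.0291). Nlrp3, the inflammasome sensor, was 5.16, 5.92 and 6.35 at 120 h, against 4.82, 4.92 and 4.70 at 24 h (1.00 ± 0.20, adjusted p = 0.00984), and it was above background on 2 of 3 arrays at 24 h. Pfkfb3, a regulator of glycolysis, was 5.39, 6.76 and 6.08 at 120 h, against 4.87, 5.03 and 4.57 at 24 h (1.26 ± 0.27, adjusted p = 0.0139). It was the 1 call among 19 glycolysis genes, where 4.16% of all genes were called. With each array left out in turn, the call was lost in 6 of 6 fits for Net1, 5 for Wnt7b, 3 for Nlrp3 and 2 for Pfkfb3.

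Gpr89b had 2 called probes of opposite direction, 1.93 ± 0.49 (adjusted p = 0.0336) and -0.60 ± 0.16 (adjusted p = 0.0468). The first was 12.76, 12.16 and 11.86 at 120 h, against 11.58, 10.35 and 9.07 at 24 h, and the second 7.96, 7.84 and 7.92 at 120 h, against 8.24, 8.69 and 8.60 at 24 h. Each probe lost the call in 5 of the 6 fits that left out an array.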
